A study of Mus musculus with 12 samples.

Results

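Neutrophils entering a tumor can slow T cells and shape inflammation through a small set of enzymes, and the RNA levels of 9 genes for such enzymes are described here in tumor-associated neutrophils (TANs) and bone marrow (BM) neutrophils. The genes are Arg1, Arg2, Nos2, Acod1, Ptgs1, Ptgs2, Ptges, Alox5 and Alox5ap, chosen by name for their roles in arginine, itaconate, prostaglandin and leukotriene metabolism, and they are 9 of the 55335 genes counted in each library. RNA sequencing was performed on 12 libraries of sorted mouse neutrophils, 4 in each of 3 groups, all from FVB mice aged 10 weeks under SOPF housing (specific and opportunistic pathogen free). PyMT TANs came from mammary tumors of PyMT mice, which carry the polyoma virus middle T transgene, driven by the mouse mammary tumor virus promoter, and have an intact Cxcr2, the receptor that draws neutrophils towards Cxcl chemokines. PyMT-Cxcr2-/- TANs came from mammary tumors of mice with the same transgene and a germline deletion of Cxcr2, so that every cell of the animal and not only the neutrophil lacked the receptor. WT BM neutrophils came from femurs and tibias of mice with neither the transgene nor the deletion, so tissue, tumor and transgene differ together between BM and PyMT TANs and cannot be told apart. Cells were enriched on CD11b and sorted as CD45+ CD11b+ Ly6G+ F4/80-. The labels number the replicates from 1 to 4 in each group without saying that each came from a separate mouse. The study describes those of the TAN comparison as animals, and for BM the p-values measure a spread between libraries that may be partly technical.

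Arginine is the substrate for which the first 3 enzymes compete. Arginase 1 (Arg1, cytosolic) and arginase 2 (Arg2, mitochondrial) split it into ornithine and urea, whereas the inducible nitric oxide synthase (Nos2) turns it into nitric oxide and citrulline, and removal of arginine from the surroundings is a known way by which myeloid cells restrain T cells. Acod1 (also named Irg1) makes itaconate from the tricarboxylic acid (TCA) cycle intermediate cis-aconitate. The cyclooxygenases Ptgs1 (COX-1, expressed at a steady level in many cells) and Ptgs2 (COX-2, inducible) convert arachidonic acid to prostaglandin H2, which Ptges, the inducible microsomal synthase, converts to prostaglandin E2. Alox5 (5-lipoxygenase) and its partner protein Alox5ap (FLAP) start the leukotriene branch from the same arachidonic acid, and this branch is classically strong in neutrophils.

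Libraries held 25032704 to 51351569 reads counted on genes. By these totals alone, a floor of 3 reads per library was worth between 0.0584 and 0.120 CPM (read counts scaled to a common library size). The CPM levels below also use TMM scaling factors, so this floor is only roughly on their scale. Cxcr2, the targeted gene, lay between 1825 and 2253 CPM in BM, while PyMT TANs ranged from 1044 to 1524 CPM and those without the receptor from 8.82 to 10.0 CPM. The sort was checked with marker lists, each summed in CPM per library. All 10 neutrophil markers were detected in every library, a list that includes Cxcr2 itself and for that gene is no check of the sort, with sums between 78900 and 104280 in BM, between 18489 and 30318 in PyMT-Cxcr2-/- TANs and between 10687 and 17054 in PyMT TANs. All 12 macrophage markers were detected in every TAN library, although F4/80+ cells had been gated out, with sums of 2255 to 5449 CPM in PyMT TANs and 2472 to 5159 CPM in PyMT-Cxcr2-/- TANs against 262 to 363 CPM in BM. The eosinophil sum lay between 19.0 and 22.95 CPM in BM, while PyMT TANs ranged from 104 to 182 CPM and PyMT-Cxcr2-/- TANs from 50.3 to 68.2 CPM. Siglecf carried most of it, at 14.7 to 18.7, 98.6 to 173 and 46.1 to 63.9 CPM, while the granule protein genes Epx and Prg2 were at 0 in 3 of the 4 PyMT TAN libraries. Mammary epithelial markers summed to at most 0.516 CPM in BM, but reached 50.8 to 473 CPM among PyMT TANs and 89.3 to 339 CPM among the other TANs. Lymphocyte markers were at 10.4 to 49.9 CPM in TANs and 223 to 260 CPM in BM. Mast cell markers, nearly all of it Kit, were at 36.6 to 107 and 31.5 to 43.6 CPM. Fibroblast, endothelial and platelet sums did not pass 35.1, 36.6 and 20.0 CPM in any library, and the erythroid sum was 108 CPM in PyMT TAN replicate 3 and at most 18.5 CPM elsewhere.

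The start of the gene was held in the RefSeq promoter table (GRCm38.p6, the mm10 build) for 5 of the 9 genes, and 3 of these promoters are shown: those of Ptgs2 and Acod1, the genes with the highest levels in TANs, and that of Ptgs1, the other cyclooxygenase and the gene called between TANs. Each run gives the 250 bases before the start of transcription, 5′ to 3′ on the plus strand, which is the coding strand for all 3 genes. They lie at chr1:150099781-150100030, chr14:103046762-103047011 and chr2:36230176-36230425. Capitals mark matches to the motifs searched on both strands.
Ptgs2: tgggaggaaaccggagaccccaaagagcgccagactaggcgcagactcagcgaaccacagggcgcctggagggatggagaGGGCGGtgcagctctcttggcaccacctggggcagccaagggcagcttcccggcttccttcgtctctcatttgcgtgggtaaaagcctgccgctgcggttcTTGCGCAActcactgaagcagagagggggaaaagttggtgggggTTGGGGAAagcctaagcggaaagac
Acod1: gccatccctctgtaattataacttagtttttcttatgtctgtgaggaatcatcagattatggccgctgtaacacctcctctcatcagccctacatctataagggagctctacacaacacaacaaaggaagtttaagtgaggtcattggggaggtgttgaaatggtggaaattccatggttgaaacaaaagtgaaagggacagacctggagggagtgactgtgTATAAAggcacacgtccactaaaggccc
Ptgs1: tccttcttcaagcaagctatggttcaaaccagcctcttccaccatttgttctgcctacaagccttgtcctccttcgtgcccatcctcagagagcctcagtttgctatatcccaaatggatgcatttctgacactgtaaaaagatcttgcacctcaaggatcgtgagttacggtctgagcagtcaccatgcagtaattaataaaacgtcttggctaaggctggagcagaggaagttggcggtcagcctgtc
The capitals in Ptgs2 are a GC box (GGGCGG) at bases 170 to 165 before the start and C/EBP matches (TTNNGNAA) at bases 69 to 62 and 25 to 18, and in Acod1 a TATA box (TATAAA) at bases 28 to 23. No motif searched had a match in the Ptgs1 run. The searched window went on for 50 bases past the start, where Ptgs2 also held a CRE half-site (TGACG, bases 14 to 18) that overlaps an E-box (CACGTG, bases 17 to 22). Such matches are common: of 32851 mouse promoters of the same 300-base length, 40.7% held the C/EBP letters, 35.7% the GC box, 20.8% the CRE half-site, 13.6% the TATA box and 7.15% the E-box. The AP-1 letters (TGANTCA, 7.81% of promoters) and the NF-kappaB motif (4.50%) had no match in these 5 windows, which says only that these letters are not in this window. The Acod1 start in RefSeq lies downstream of the one in GENCODE.

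Most of the 9 genes differed between TANs and BM, and 1 differed between both kinds of TAN. Compared with BM, PyMT TANs had higher RNA levels of 4 genes (Arg1, Nos2, Acod1 and Ptgs2) and lower levels of 3 (Ptges, Alox5 and Alox5ap), while Arg2 and Ptgs1 did not pass the test. A gene was called when its adjusted p was under 0.05 (edgeR quasi-likelihood test, Benjamini-Hochberg over all genes tested) and its change was 1.5-fold or more. These 7 of 9 calls stand against 53.3% of the 17153 genes tested in that comparison, 30.1% higher and 23.2% lower, so a call as such sets no enzyme apart. PyMT-Cxcr2-/- TANs differed from BM in 8 of the 9 genes, 5 higher and 3 lower, against 59.5% of 17732 genes tested (34.4% higher, 25.1% lower). Between both kinds of TAN, 1 gene was called, Ptgs1, which was lower in PyMT-Cxcr2-/- TANs, against 1.98% of 18463 genes (1.38% higher and 0.596% lower). All 9 genes passed the filter on low counts in each comparison. Median log2 fold changes over the 9 were 0.46, 0.997 and 0.47 in these 3 comparisons, beside 0.09, 0.09 and -0.07 over all genes tested. Both comparisons with BM share the 4 BM libraries, so they are not independent of each other. In sorted but mixed cells, fewer cells of a type and less RNA per cell cannot be told apart.

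**Figure D1:**
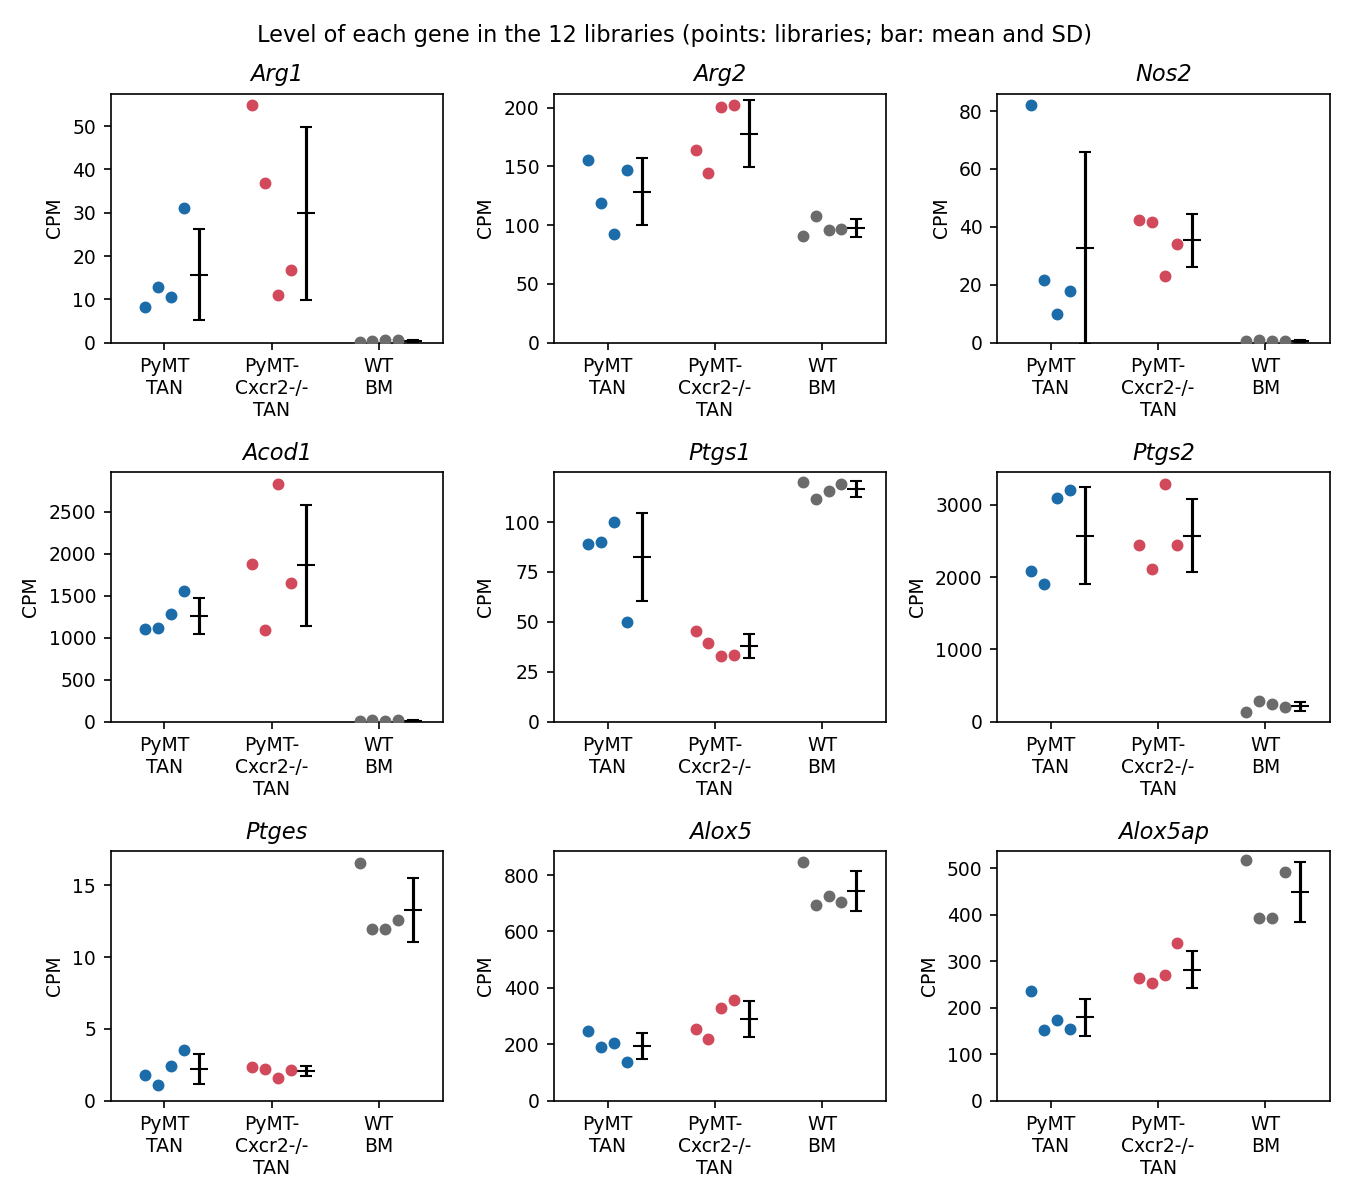
RNA level of each of the 9 genes in CPM (linear axis from 0, its own scale in each panel) by library, with replicates 1 to 4 from left to right in each group and the mean and SD (n = 4) beside them. Arg1, Nos2, Acod1 and Ptgs2 lie near the axis in BM and well above it in TANs, Ptges, Alox5 and Alox5ap are highest in BM, and Ptgs1 is lowest in PyMT-Cxcr2-/- TANs; the lower end of the Nos2 bar in PyMT TANs falls below 0 and is cut by the axis.

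Arg1 (ENSMUSG00000019987, mm10 chromosome 10 from 24915221 to 24927484, minus strand), the cytosolic arginase, was barely detected in BM, with 6, 12, 23 and 25 reads in replicates 1 to 4, or 0.180, 0.372, 0.660 and 0.701 CPM. PyMT TANs had 8.33, 12.7, 10.5 and 31.2 CPM. PyMT-Cxcr2-/- TANs had 54.8, 36.9, 10.97 and 16.8 CPM. Every TAN library was above every BM library, and both TAN groups overlapped widely. The rise over BM was 5.09 on the log2 scale in PyMT TANs (SE 0.55, adjusted p = 1.52e-05, edgeR) and 6.08 in PyMT-Cxcr2-/- TANs (SE 0.64, adjusted p = 1.98e-05, edgeR), that is 34.2-fold and 67.8-fold. Without PyMT TAN replicate 4, the highest of its group, the former was 4.48 (adjusted p = 2.70e-05). Means in TANs were 15.7 ± 10.5 and 29.9 ± 20.0 CPM (SD, n = 4), and the difference between them, 0.92 on the log2 scale with a 95% interval of -0.27 to 2.12, was within the spread (adjusted p = 0.488, edgeR). A change of up to 4.36-fold is inside that interval.

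Arg2 (ENSMUSG00000021125, chromosome 12 from 79130777 to 79156301, plus strand), the mitochondrial arginase, was by contrast well expressed in all 3 groups. BM had 90.6, 108, 95.8 and 96.5 CPM. PyMT TANs had 155, 119, 92.5 and 147 CPM and overlapped BM through replicate 3. In PyMT-Cxcr2-/- TANs the values were 164, 144, 201 and 202 CPM, all above BM. Against BM, Arg2 was 0.46 higher on the log2 scale in PyMT TANs (SE 0.16, adjusted p = 0.0269, edgeR), under the 1.5-fold limit, and it rose by 0.997 in PyMT-Cxcr2-/- TANs (SE 0.12, adjusted p = 5.80e-06), or 1.995-fold. The first of these changed with the processing, and it was called at 0.90 when libraries were scaled by their totals alone and at 0.80 after adjustment for GC content and length. Between TANs, Arg2 was 0.47 higher without Cxcr2 (SE 0.18, 95% interval 0.07 to 0.87, adjusted p = 0.238, edgeR), which did not pass. Exons of Vti1b (285 bases) and Gm48780 (116 bases) overlap 1428 bases of Arg2 exon on the other strand. How the counting used strand is not given in the sources used here, so reads there cannot be assigned with certainty, and Vti1b was at 15.6 to 27.7 CPM in TANs and 40.9 to 43.0 CPM in BM.

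Nos2 (ENSMUSG00000020826, chromosome 11 from 78920787 to 78960254, plus strand), which makes nitric oxide, had 0.420, 0.774, 0.717 and 0.421 CPM in BM. In PyMT TANs it had 82.0, 21.5, 9.89 and 17.9 CPM, with replicate 1 far above the others. The PyMT-Cxcr2-/- TANs were closer together at 42.5, 41.7, 22.9 and 34.2 CPM, above 3 of the 4 PyMT libraries. Both groups were clear of BM, by 5.86 on the log2 scale (SE 0.68, adjusted p = 2.51e-05, edgeR) and 6.05 (SE 0.27, adjusted p = 1.73e-09). Means were 32.8 ± 33.1 and 35.3 ± 9.12 CPM (SD, n = 4), and the fitted difference between TANs was 0.10 (95% interval -1.17 to 1.38, adjusted p = 0.973, edgeR). That difference rests on PyMT TAN replicate 1: without it, Nos2 was 1.15 higher in PyMT-Cxcr2-/- TANs (adjusted p = 0.0657, still not called) and the rise of PyMT TANs over BM was 4.87 (adjusted p = 4.42e-06) in place of 5.86. The difference fell to -0.05, -0.19 and -0.10 without PyMT TAN replicates 2, 3 and 4.

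Arg1 and Nos2, the arginine enzymes with the lowest levels, moved apart between libraries of 1 group. On CPM per kb of exon, which allows levels of different genes to be compared, the ratio of Nos2 to Arg1 was 4.97 in PyMT TAN replicate 1 and 0.289 in replicate 4 of the same group. It ranged from 0.392 to 1.05 in PyMT-Cxcr2-/- TANs and from 0.303 to 1.18 in BM. Arg2 exceeded Arg1 in all 12 libraries, by 215 to 786 times in BM, by 7.38 to 29.1 times in PyMT TANs and by 4.66 to 28.6 times in PyMT-Cxcr2-/- TANs. Macrophage marker sums were also higher in TANs. PyMT TAN replicate 1, the library with most Nos2, had the lowest macrophage sum of the 8 TAN libraries, 2255 CPM, and PyMT TAN replicate 3, with the highest sum (5449 CPM), had the least Nos2 (9.89 CPM) and 10.5 CPM of Arg1. PyMT-Cxcr2-/- TAN replicates 1 and 2, with the highest sums of their group (4397 and 5159 CPM), had the most Arg1 and Nos2 of that group. These libraries also had the highest mammary epithelial sums of their group (259 and 339 CPM). PyMT TAN replicate 4, with the most Arg1 of its group, had an epithelial sum of 473 CPM, and replicate 3 had 365 CPM. The part of macrophages and epithelial cells in the rise over BM was not tested, for Arg1 and Nos2 or for any gene named below.

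**Figure D2:**
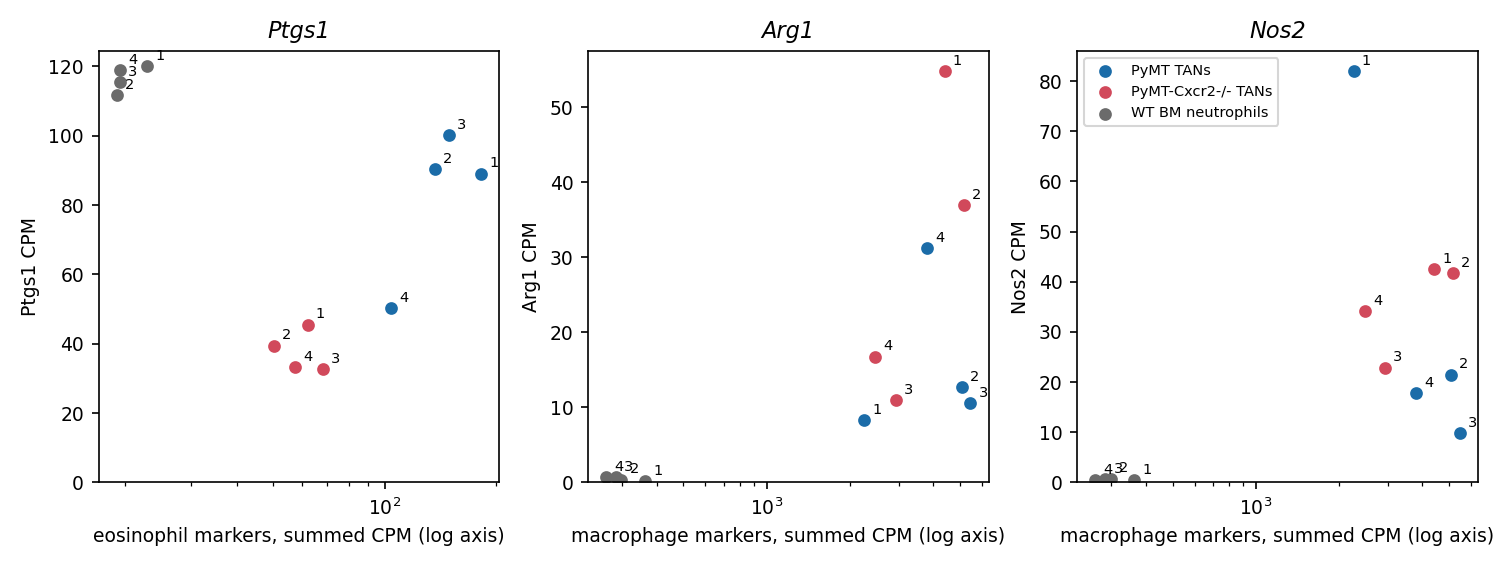
Level of Ptgs1 against the summed eosinophil markers (left) and of Arg1 and Nos2 against the summed macrophage markers (middle and right), in CPM, with a log horizontal axis; each point is a library and its number the replicate. PyMT TAN replicate 1 has 82.0 CPM of Nos2 at a macrophage sum of 2255 CPM, and Ptgs1 and the eosinophil sum are both higher in PyMT than in PyMT-Cxcr2-/- TANs, while BM has the most Ptgs1 and the lowest eosinophil sum. Most of the eosinophil sum is Siglecf alone.

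Other genes of arginine metabolism were mostly higher in TANs than in BM. Of the 22 genes tested on a list of arginine transport, urea cycle, polyamine and tetrahydrobiopterin genes, 13 rose and 4 fell in PyMT TANs compared with BM, with a median of 1.06 on the log2 scale (0.09 over all genes). In PyMT-Cxcr2-/- TANs, 14 rose and 2 fell (median 1.004). The shares called, 77.3% and 72.7%, stand beside 53.3% and 59.5% of all genes tested. The cationic amino acid transporter Slc7a2 showed the widest step, from 0 to 0.112 CPM in BM to 7.59 to 50.6 CPM in PyMT TANs and 11.9 to 55.6 CPM in PyMT-Cxcr2-/- TANs (adjusted p = 2.05e-05 and 1.39e-06, edgeR). Slc7a6, another transporter, rose by 4.35 (SE 0.41) and 4.07 (SE 0.33). Spr, which makes the tetrahydrobiopterin cofactor that nitric oxide synthases need, rose by 3.26 (SE 0.39) in PyMT TANs, and Srm, the spermidine synthase downstream of ornithine, by 3.24 (SE 0.35) in PyMT-Cxcr2-/- TANs. Slc7a7 fell by 1.81 (SE 0.23) and 1.41 (SE 0.11), Pts, an earlier step of cofactor synthesis, fell by 1.43 (SE 0.22) and 1.39 (SE 0.12), and Asl, the argininosuccinate lyase that regenerates arginine, fell by 0.78 (SE 0.15) in PyMT TANs, a call lost when libraries were scaled by totals alone (-0.33, adjusted p = 0.0887). Between TANs 0 of 23 list genes were called by edgeR, 3 had an unadjusted p under 0.05, and DESeq2 also called 0.

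Acod1 (ENSMUSG00000022126, chromosome 14 from 103046977 to 103056573, plus strand), the itaconate enzyme, showed the widest rise of the 9 genes. It had 9.99, 17.3, 12.6 and 14.97 CPM in BM. PyMT TANs reached 1102, 1111, 1280 and 1557 CPM, and PyMT-Cxcr2-/- TANs 1879, 1090, 2828 and 1653 CPM. The lowest TAN library thus held 1090 CPM and the highest BM library 17.3 CPM. On the log2 scale the rise was 6.59 (SE 0.23, adjusted p = 1.48e-08, edgeR) in PyMT TANs and 7.22 (SE 0.33, adjusted p = 4.45e-09) in PyMT-Cxcr2-/- TANs, or 96.5-fold and 149-fold. Among 21899 protein-coding genes ranked by mean CPM per kb, Acod1 stood at place 4842 in BM, 37 in PyMT TANs and 33 in PyMT-Cxcr2-/- TANs. Means in TANs were 1262 ± 213 and 1863 ± 724 CPM (SD, n = 4), and their difference of 0.56 (95% interval 0.01 to 1.10, adjusted p = 0.314, edgeR) did not pass the test.

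Genes of the TCA cycle moved in both directions. Of 23 genes on the list, 7 rose and 3 fell in PyMT TANs compared with BM (median 0.09, as over all genes), and 7 rose and 2 fell in PyMT-Cxcr2-/- TANs (median 0.14). With 43.5% and 39.1% called, the list was below the shares over all genes tested (53.3% and 59.5%). Idh3a, a subunit of the isocitrate dehydrogenase that follows aconitase, rose by 3.68 (SE 0.32) and 3.40 (SE 0.23), and Fh1, the fumarase, by 2.75 (SE 0.34) and 2.45 (SE 0.27). Suclg2 rose by 2.35 (SE 0.37) in PyMT TANs and the dicarboxylate carrier Slc25a10 by 2.40 (SE 0.26) in PyMT-Cxcr2-/- TANs. Mdh2 fell by 1.21 (SE 0.15) and 1.07 (SE 0.13), the oxoglutarate carrier Slc25a11 by 1.203 (SE 0.15) and 0.89 (SE 0.12), and Acly by 0.86 (SE 0.16) in PyMT TANs, under the 1.5-fold limit when scaled by totals alone (-0.41). Between TANs 0 of 23 genes were called by edgeR or DESeq2, and 0 had an unadjusted p under 0.05.

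Ptgs2 (ENSMUSG00000032487, chromosome 1 from 150100031 to 150108227, plus strand), the inducible cyclooxygenase, was already present in BM at 132, 280, 244 and 206 CPM. It reached 2081, 1907, 3102 and 3207 CPM in PyMT TANs and 2446, 2120, 3291 and 2440 CPM in PyMT-Cxcr2-/- TANs. The TAN groups lay on top of each other and far above BM. The rise over BM was 3.65 on the log2 scale (SE 0.27, adjusted p = 1.003e-06, edgeR) and 3.71 (SE 0.23, adjusted p = 2.25e-08), that is 12.5-fold and 13.1-fold. TAN means were 2574 ± 675 and 2574 ± 502 CPM (SD, n = 4), with a difference of -0.00 (95% interval -0.45 to 0.45, adjusted p = 0.998, edgeR). Its place among protein-coding genes by CPM per kb went from 967 in BM to 34 and 44 in TANs.

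Ptgs1 (ENSMUSG00000047250, chromosome 2 from 36230426 to 36252272, plus strand), the constitutive cyclooxygenase, took the other course and was the 1 gene of the 9 that edgeR called between TANs. BM had 120, 112, 116 and 119 CPM. PyMT TANs had 89.0, 90.2, 100 and 50.2 CPM, with replicate 4 lowest, and PyMT-Cxcr2-/- TANs had 45.5, 39.5, 32.7 and 33.2 CPM. No value of 1 group fell into the range of another, in the order BM, PyMT, PyMT-Cxcr2-/-. Groups that do not overlap were found for 12% of genes between TANs, 58.3% between PyMT TANs and BM and 65.9% between PyMT-Cxcr2-/- TANs and BM. Ptgs1 was lower in PyMT-Cxcr2-/- than in PyMT TANs by 1.13 on the log2 scale (-1.13, SE 0.21, 95% interval -1.59 to -0.67, adjusted p = 0.0228, edgeR), or 2.19-fold, with means of 37.7 ± 6.04 and 82.4 ± 22.1 CPM (SD, n = 4). Against BM it fell by 1.49 in PyMT-Cxcr2-/- TANs (SE 0.12, adjusted p = 1.41e-07), while in PyMT TANs the difference of -0.44 (SE 0.18, adjusted p = 0.0625) did not pass. This last value depended on the processing, as it was 0.00048 with scaling by library totals and was called with GC and length adjustment, at -0.64 alone and -0.67 with the replicate block (adjusted p = 0.00609 and 0.0109, edgeR). The size of the step between TANs held, at -1.02 to -1.31, with any 1 library left out, but its call did not: the adjusted p became 0.0887 without PyMT TAN replicate 2, 0.0532 without replicate 3, and 0.0503, 0.106 and 0.103 without PyMT-Cxcr2-/- TAN replicates 2, 3 and 4. The eosinophil marker sum, most of it Siglecf, was higher in PyMT than in PyMT-Cxcr2-/- TANs without overlap as well. Its lowest PyMT value was in replicate 4 (104 CPM), which also had the least Ptgs1 of its group and no reads of Epx or Prg2. The sum was lowest in BM, where Ptgs1 was highest. Macrophage sums overlapped between TANs (2255 to 5449 and 2472 to 5159 CPM), and sums of platelet markers, whose cells are rich in Ptgs1, were 8.02 to 17.0 and 11.9 to 16.3 CPM. Their part in the Ptgs1 difference was not tested. Exons of Gm43621 overlap 148 of 3884 exon bases of Ptgs1 on the other strand, and this gene was at most 3.01 CPM in every library.

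The balance of both cyclooxygenases within a library differed between BM and TANs. On CPM per kb, Ptgs2 exceeded Ptgs1 between 17.9 and 54.2 times in PyMT TANs and between 45.6 and 85.3 times in PyMT-Cxcr2-/- TANs, whereas in BM the ratio was 0.931 to 2.12. The TAN groups overlapped here through PyMT TAN replicate 4 (54.2), the library with the least Ptgs1 of its group. Acod1 and Ptgs2 came close to each other in TANs, with ratios of Acod1 to Ptgs2 of 0.721 to 1.02 and 0.898 to 1.501, against 0.0901 to 0.132 in BM.

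**Figure D3:**
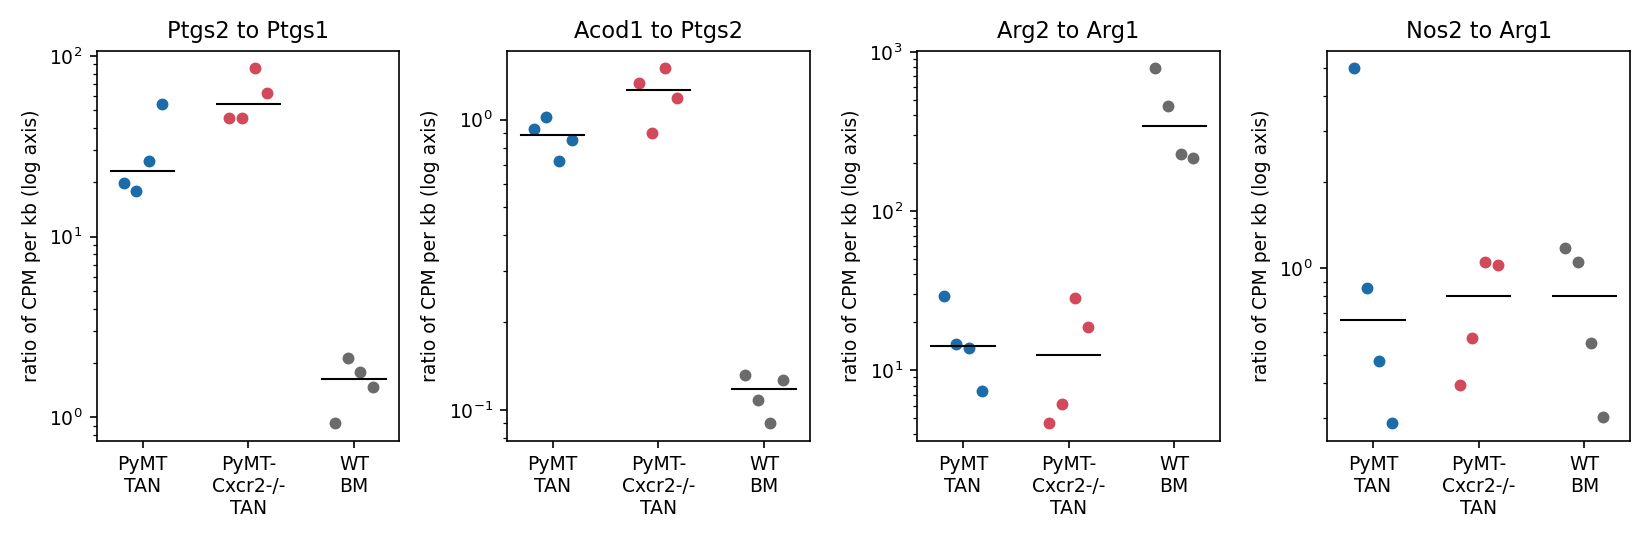
Ratios of CPM per kb between pairs of the genes within each library (log axis, own scale in each panel), with replicates 1 to 4 from left to right and a line at the group median. Ptgs2 to Ptgs1 and Acod1 to Ptgs2 are higher in every TAN library than in every BM library (medians 23.03 and 54.0 against 1.63 for the former), Arg2 to Arg1 is lower in TANs, and Nos2 to Arg1 overlaps between all groups.

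Ptges (ENSMUSG00000050737, chromosome 2 from 30889471 to 30929863, minus strand), the inducible prostaglandin E synthase that works with Ptgs2, went down where Ptgs2 went up. BM had 16.6, 11.98, 11.96 and 12.6 CPM. PyMT TANs had 1.81, 1.12, 2.39 and 3.54 CPM, from 42 to 170 reads, and PyMT-Cxcr2-/- TANs 2.36, 2.18, 1.55 and 2.16 CPM. All TAN libraries were below all BM libraries. Ptges fell by 2.51 on the log2 scale in PyMT TANs (SE 0.34, adjusted p = 8.09e-05, edgeR) and by 2.55 in PyMT-Cxcr2-/- TANs (SE 0.20, adjusted p = 1.29e-07), or 5.69-fold and 5.85-fold. Between TANs the difference was -0.11 with a wide 95% interval of -1.04 to 0.83 (adjusted p = 0.961, edgeR).

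Other prostanoid genes moved in both directions. Of 22 tested, 11 rose and 8 fell in PyMT TANs compared with BM (median -0.01), and 11 rose and 9 fell in PyMT-Cxcr2-/- TANs (median 0.64). These are 86.4% and 90.9% of the list, beside 53.3% and 59.5% of all genes tested. Hpgds, the hematopoietic prostaglandin D synthase, rose by 7.04 (SE 0.43) and 6.76 (SE 0.38), from 0.112 to 0.510 CPM in BM to 22.4 to 55.7 CPM in TANs, and it competes with Ptges for prostaglandin H2. Macrophage and mammary epithelial marker sums were also higher in TANs than in BM, and their part in this rise was not tested. The lysosomal phospholipase Pla2g15 rose by 3.37 (SE 0.18) and 3.06 (SE 0.16), and Akr1b3, an aldose reductase with prostaglandin F synthase activity, by 3.18 (SE 0.42) and 3.005 (SE 0.24). Among receptors, Ptgdr fell by 5.78 (SE 0.80) and 4.64 (SE 0.58), from 7.60 to 8.61 CPM in BM to at most 0.599 CPM in TANs, and the log2 changes were -6.98 without PyMT TAN replicate 4 and -5.24 without PyMT-Cxcr2-/- TAN replicate 3. The second prostaglandin E synthase Ptges2 fell by 1.52 (SE 0.25) in PyMT TANs, and Ptgr2, which degrades prostaglandins, by 1.49 (SE 0.18) in PyMT-Cxcr2-/- TANs. Ptges3, a further prostaglandin E synthase, was by contrast higher in TANs. It lay at 27.6 to 35.7 CPM in BM, 51.7 to 64.7 CPM in PyMT TANs and 39.1 to 46.0 CPM in PyMT-Cxcr2-/- TANs. Ptgir, the prostacyclin receptor, fell by 3.68 (SE 0.20) and 2.10 (SE 0.23) and was the 1 of 22 list genes called between TANs (list median -0.16). It lay between 56.8 and 84.0 CPM in BM, while PyMT TANs ranged from 3.98 to 6.20 CPM and PyMT-Cxcr2-/- TANs from 9.63 to 22.2 CPM, a rise of 1.51 without Cxcr2 (SE 0.28, adjusted p = 0.0239, edgeR). That call was lost without PyMT TAN replicate 2 or 4 (adjusted p = 0.0894 and 0.0604) and without PyMT-Cxcr2-/- TAN replicate 3 or 4 (0.0788 and 0.0806), with a log2 change of 1.25 or more in each. At an unadjusted p under 0.05 (edgeR), 1 gene of the list was higher and 2 lower in PyMT-Cxcr2-/- than in PyMT TANs. DESeq2 called 1 of the list higher and 0 lower.

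Alox5 (ENSMUSG00000025701, chromosome 6 from 116410077 to 116461178, minus strand), the 5-lipoxygenase, was highest in BM, at 848, 693, 726 and 706 CPM. PyMT TANs had 247, 191, 205 and 137 CPM and PyMT-Cxcr2-/- TANs 255, 218, 328 and 359 CPM. TANs were below BM in every library, and the TAN groups overlapped through PyMT TAN replicate 1. The fall from BM was -1.87 on the log2 scale (SE 0.17, adjusted p = 4.34e-06, edgeR) in PyMT TANs and -1.23 (SE 0.15, adjusted p = 7.28e-06) in PyMT-Cxcr2-/- TANs. Between TANs, Alox5 was 0.57 higher without Cxcr2 (SE 0.21, 95% interval 0.12 to 1.02, adjusted p = 0.197, edgeR), short of the threshold.

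Alox5ap (ENSMUSG00000060063, chromosome 5 from 149264767 to 149288153, plus strand), which hands arachidonic acid to Alox5, followed the same order. BM had 517, 393, 393 and 491 CPM, PyMT TANs 237, 152, 174 and 154 CPM, and PyMT-Cxcr2-/- TANs 263, 254, 270 and 339 CPM, so that the 3 groups did not overlap. It fell from BM by 1.26 (SE 0.17, adjusted p = 6.21e-05, edgeR) in PyMT TANs. In PyMT-Cxcr2-/- TANs the difference of -0.54 (SE 0.13, adjusted p = 0.00208) was under the 1.5-fold limit, which it passed without PyMT-Cxcr2-/- TAN replicate 4 (-0.64), BM replicate 2 (-0.61) or BM replicate 3 (-0.60) and with all 12 libraries in one fit (-0.67). Between TANs it was 0.65 higher without Cxcr2 (SE 0.17, 95% interval 0.28 to 1.02, adjusted p = 0.0794, edgeR), which misses the threshold, whereas DESeq2 called it (0.70, adjusted p = 0.0111), as did edgeR without PyMT TAN replicate 1 (0.86, adjusted p = 0.0168). Neutrophil marker sums, most of them S100a8 and S100a9 in BM, showed the same order without overlap, BM over PyMT-Cxcr2-/- over PyMT TANs. Csf3r on that list did not, at means of 3959, 4778 and 3773 CPM. The part of neutrophil content in the order of Alox5 and Alox5ap was not tested. Gm19719 overlaps 189 of 1420 exon bases of Alox5ap on the other strand and also had this order, at 85.6 to 95.1, 23.3 to 42.3 and 5.70 to 16.47 CPM.

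Genes on either side of the lipoxygenase moved in both directions. The leukotriene and lipoxygenase list had 6 genes up and 6 down of 18 tested in PyMT TANs compared with BM (median -0.48), and 6 up and 8 down of 17 in PyMT-Cxcr2-/- TANs (median -0.09), or 66.7% and 82.4% called beside 53.3% and 59.5% of all genes tested. Lta4h, which makes leukotriene B4, fell by 2.35 (SE 0.14) and 1.90 (SE 0.17), from 244 to 303 CPM in BM to 43.6 to 95.9 CPM in TANs, and its receptor Ltb4r1 by 2.19 (SE 0.20) and 1.63 (SE 0.16). Mgst2, a microsomal glutathione transferase, fell by 3.96 (SE 0.35) and 2.29 (SE 0.63), and the latter log2 change was -3.15 without PyMT-Cxcr2-/- TAN replicate 4. The leukotriene C4 synthase Ltc4s rose by 3.74 (SE 0.48) in PyMT TANs, the cysteinyl leukotriene receptor Cysltr1 by 4.95 (SE 0.40) and 4.26 (SE 0.37), and the leukotriene C4 exporter Abcc1 by 2.66 (SE 0.15) and 2.44 (SE 0.10). Ggt1, a gamma-glutamyl transferase that trims leukotriene C4 to D4, rose by 1.22 (SE 0.19) in PyMT-Cxcr2-/- TANs compared with BM, and it was the 1 of 19 list genes called between TANs (list median 0.34). It lay between 17.4 and 26.1 CPM in BM, while PyMT TANs ranged from 7.73 to 23.7 CPM and PyMT-Cxcr2-/- TANs from 33.6 to 62.7 CPM, a step of 1.68 between TANs (SE 0.33, adjusted p = 0.0284, edgeR). Leaving out PyMT TAN replicate 2, 3 or 4 gave an adjusted p of 0.104, 0.0903 and 0.0607 and leaving out PyMT-Cxcr2-/- TAN replicate 2, 3 or 4 gave 0.0554, 0.0723 and 0.103, with a step of 1.46 or more. Without the filter on low counts its adjusted p was 0.0506. At an unadjusted p under 0.05 (edgeR), 5 genes of the list were higher and 2 lower in PyMT-Cxcr2-/- than in PyMT TANs. DESeq2 called 2 of the list higher and 1 lower.

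**Figure D4:**
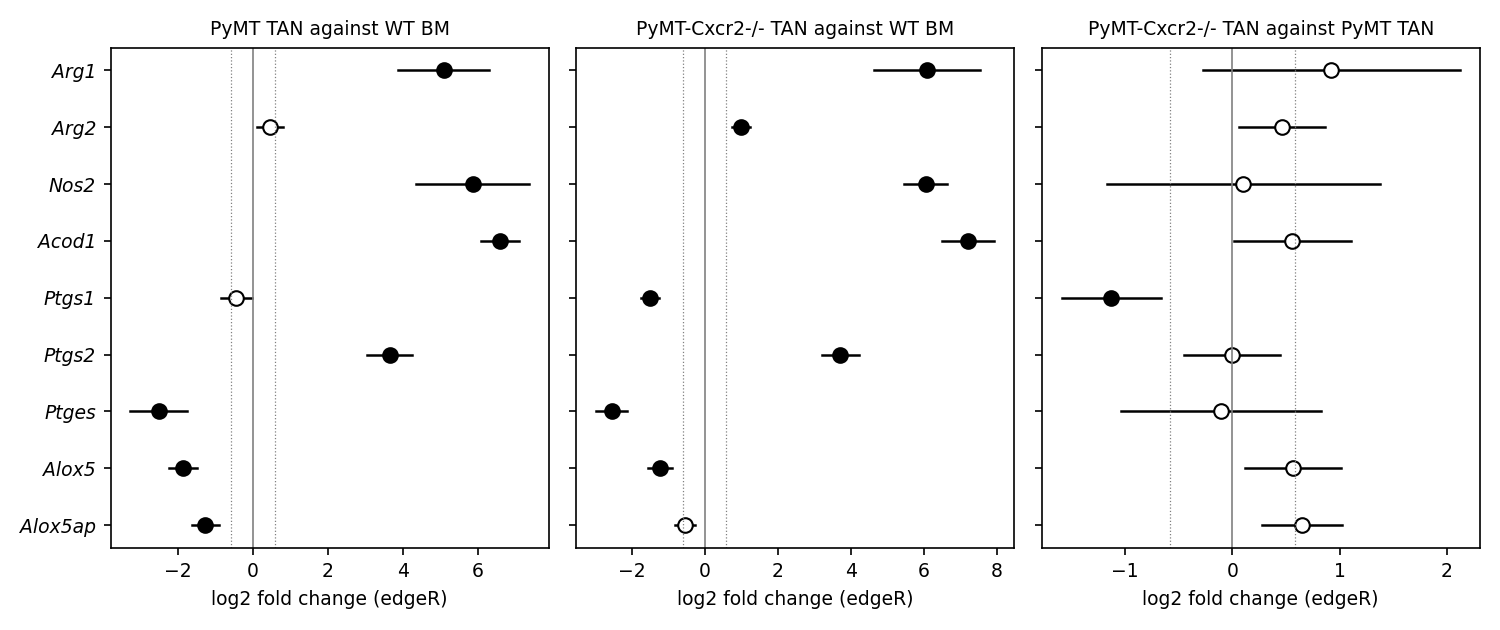
Log2 fold change of each of the 9 genes from edgeR (point) with its 95% interval (line) in the 3 comparisons, each with its own horizontal scale; filled points passed the test and the 1.5-fold limit (dotted lines), open points did not. In the first panels Arg1, Nos2, Acod1 and Ptgs2 lie far right of 0 and Ptges, Alox5 and Alox5ap left of it, and in the last panel only Ptgs1 (-1.13) is filled.

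Receptors and factors known to induce these enzymes were also mostly higher in TANs. Of 24 genes on that list, 13 rose and 3 fell in PyMT TANs compared with BM (median 0.69) and 15 rose and 2 fell in PyMT-Cxcr2-/- TANs (median 1.10), beside a median of 0.09 over all genes in each. The shares called were 66.7% and 70.8%, against 53.3% (30.1% higher, 23.2% lower) and 59.5% (34.4% higher, 25.1% lower) of all genes tested. Il13ra1, a receptor chain for the cytokines Il4 and Il13 that induce Arg1, rose by 2.603 (SE 0.15) and 2.51 (SE 0.10). The hypoxia-inducible factor Epas1 rose by 3.36 (SE 0.47) and 3.33 (SE 0.35), and the early growth response factor Egr1 by 2.77 (SE 0.29) in PyMT TANs. Cebpb, a C/EBP factor, rose by 2.49 (SE 0.14) in PyMT-Cxcr2-/- TANs, while its relative Cebpd fell by 1.72 (SE 0.20) and 1.36 (SE 0.12). Csf2ra, a chain of the GM-CSF receptor, fell by 1.201 (SE 0.15) in PyMT TANs. Between TANs 0 of 24 were called by edgeR, 6 had an unadjusted p under 0.05, and DESeq2 called 3 higher.

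**Figure D5:**
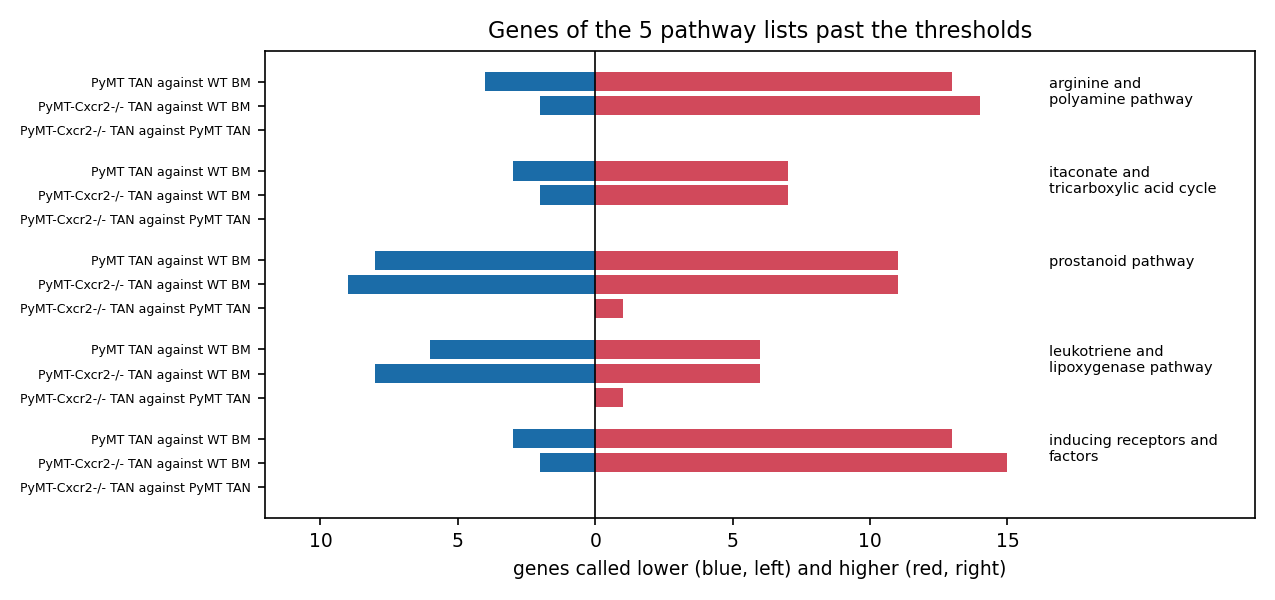
Number of genes called higher (to the right, red) and lower (to the left, blue) in each of the 5 pathway lists and 3 comparisons, by edgeR at an adjusted p under 0.05 and 1.5-fold. In both comparisons with BM every list has calls in both directions, for example 13 and 4 of 22 arginine genes in PyMT TANs, whereas between TANs there are 2 calls in all, Ptgir and Ggt1.

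Set side by side on CPM per kb, the 9 genes kept a similar order in both kinds of TAN and another in BM. In PyMT TANs, Ptgs2 (562 ± 147, SD, n = 4) and Acod1 (481 ± 81.1) were highest and did not differ beyond their spread. Alox5ap (126 ± 27.8) and Arg2 (90.0 ± 20.1), whose libraries overlapped, came next, followed by Alox5 (47.5 ± 11.1) and Ptgs1 (21.2 ± 5.69). Nos2 (7.44 ± 7.51) and Arg1 (7.05 ± 4.70) could not be ordered, both also overlapping Ptgs1, and Ptges (0.564 ± 0.260) was lowest. In PyMT-Cxcr2-/- TANs, Acod1 (710 ± 276) and Ptgs2 (562 ± 110) again overlapped, then came Alox5ap (198 ± 27.5), Arg2 (125 ± 20.0) and Alox5 (70.6 ± 15.8). Arg1 (13.4 ± 8.98), Ptgs1 (9.71 ± 1.55) and Nos2 (8.01 ± 2.07) overlapped there, and Ptges (0.524 ± 0.0897) was again lowest. In BM the order was led by Alox5ap (316 ± 45.7), Alox5 (181 ± 17.4) and Arg2 (68.5 ± 5.22), with Ptgs2 (47.0 ± 13.8) and Ptgs1 (30.0 ± 0.98) overlapping, then Acod1 (5.23 ± 1.203) and Ptges (3.38 ± 0.566), also overlapping, and Arg1 (0.215 ± 0.111) and Nos2 (0.132 ± 0.0429) last.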

How the data were processed

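RNA of sorted neutrophils was sequenced in 12 libraries, 4 per group. According to the study's methods, libraries were made with rRNA depletion and a directional kit and sequenced as paired ends; reads were trimmed, aligned to mm10 with STAR and counted per gene with HTSeq, and the authors deposited raw counts per gene, not normalized. The strand setting, annotation release and versions are not given in the sources used here. Rows that name no gene (46.3 to 60.5% of the reads per library) were left out of totals and tests.

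Each comparison was fitted on its own 8 libraries with edgeR 4.0.16 (R 4.3.3): filterByExpr, TMM factors, robust quasi-likelihood test, Benjamini-Hochberg adjustment, with a call at an adjusted p under 0.05 and 1.5-fold. The SE is the log2 change divided by the root of F. CPM used TMM factors over all 12 libraries, and CPM per kb the exon length in GENCODE M21, which matched 55154 of 55335 gene IDs. DESeq2 1.42.0 and the other settings of the closing section were alternatives. On data simulated for the comparison between TANs (18463 genes, 200 changed), edgeR recovered 67% of changes of 3 on the log2 scale and 11.5% of changes of 1. For changes of 1, edgeR made 1 false call beside 23 genes recovered, and DESeq2 38 beside 63. With no gene changed, DESeq2 made 14 false calls and edgeR 0, so calls by DESeq2 alone between TANs are less certain. In all 18 pairs of libraries within a group, counts differed beyond sampling noise. Intervals and floors cover the counting or between-library error named with them only.

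The genes and lists were chosen with earlier results of these data known. From each list, the text names the 3 genes with the largest rise and the 3 with the largest fall among those called in each comparison whose mean log2 CPM was 1 or more, every gene called between TANs, and for likeness the 3 genes with the highest r. A gene named for only PyMT or only PyMT-Cxcr2-/- TANs may have moved in the other group too, so its naming does not set that group apart. Ptges3 is named outside this rule, beside the other prostaglandin E synthases. Some genes that this rule selects are not reported here. The symbols Dpep2 and Oxer1 did not match, and Prxl2b was matched as Fam213b. Promoters came from RefSeq.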

Additional observations from a re-analysis of the deposited data

Results flagged for a closer look

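In 27 groups of 4 libraries (9 genes in 3 groups), the highest or lowest library was tested for standing apart from the other libraries of its group by Dixon's ratio, the gap to the nearest value over the whole range, and 2 groups passed the 95% critical value. Chance gives about 1 in 20 such groups. For Nos2, PyMT TAN replicate 1 stood at 82.0 CPM against 21.5 CPM in the next library (ratio 0.839). For Ptges, BM replicate 1 stood at 16.6 CPM against 12.6 CPM in the next (ratio 0.864).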

How the results depend on the processing

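The comparisons of TANs with BM kept their calls for Arg1, Nos2, Acod1, Ptgs2, Ptges and Alox5 in every setting tried. Between TANs, edgeR called 255 genes higher and 110 lower, with 1 of the 9. Scaling by library totals gave 391 lower and moved the median of all genes by -0.19 (0.44 and 0.18 in the comparisons of PyMT and PyMT-Cxcr2-/- TANs with BM), with 34.5% of calls higher in place of 69.9%, and 2488 genes lower between PyMT TANs and BM (72.8% higher in place of 56.4%). Without a filter there were 471 higher, with 2 of the 9, DESeq2 gave 691 and 348, with 2, and all 12 libraries in one fit gave 579 and 307, with 2; the second gene was Alox5ap each time. GC and length adjustment gave 151 and 63. Under the replicate block there were 4 and 9 calls and 0 of the 9 (Ptgs1 -1.10, adjusted p = 0.116, edgeR), and with GC and length added 3 and 5 and 0 (Ptgs1 -1.06, adjusted p = 0.135). The block also ended the calls of Ptgir and Ggt1 between TANs (adjusted p = 0.149 for each, with or without GC and length adjustment, edgeR), and with GC and length adjustment it gave 5.13 for Nos2 between PyMT TANs and BM. Same-numbered TAN libraries correlated at -0.21 to -0.07 in their deviations, so the numbers do not pair them. Leaving out 1 library gave 10 to 427 higher, 13 to 100 lower and 0 to 2 of the 9. Signs changed only for differences not called in the fits as reported: Ptgs2 between TANs was 0.0564 with RLE factors, 0.0619 without a filter, 0.0594 with DESeq2, 0.00014 with 12 libraries, 0.0165 with the block, 0.14 with GC and length adjustment and 0.14 with both; Nos2 was -0.0292 with library totals, Ptges 0.0112 with GC, length and block, and Ptgs1 between PyMT TANs and BM 0.00048 with library totals. Without 1 library the values between TANs were -0.19 to 1.15 for Nos2, -0.12 to 0.12 for Ptgs2 and -0.32 to 0.22 for Ptges. The cause was not tested. Depth limits Arg1 and Nos2 in BM, with 6 to 25 reads a library.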

Other observations

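Across the 8 TAN libraries, with each group centred on its own mean of log2 CPM, the genes whose levels varied most like each of the 9 were found by Pearson's r. These values describe 8 points that share libraries and depth, and no test was made. They are the highest of 18463 genes, so high values are to be expected from the selection alone. Dnah10 and Moxd1, named below, were at means of only 0.493 and 0.476 CPM. Alox5 was most like Kctd20 (r = 0.995), Adipor1 (0.994) and Eloa (0.994), and Alox5ap most like 1810013L24Rik (0.993), Upp1 (0.988) and Cd47 (0.987). Arg2 was most like the amino acid transporter Slc38a2 (0.992), Vamp4 (0.992) and Gm34983 (0.992). Arg1 was most like Ly6a (0.987), Paip2b (0.986) and Cox7b (0.980), and Nos2 most like Sdhaf2 (0.988), Brd9 (0.985) and Creg2 (0.978). Acod1 was most like Gm26759 (0.941), Dnah10 (0.933) and Taf4b (0.933), Ptgs1 most like Scarb2 (0.985) and Idua (0.982), Ptgs2 most like Moxd1 (0.951), Arhgap18 (0.947) and Strbp (0.945), and Ptges most like mt-Rnr2 (0.972), Skp1a (0.970) and Cd1d1 (0.970). Among the 9 genes themselves, Alox5 and Alox5ap varied together (r = 0.81, rho = 0.90), as did Acod1 and Ptgs2 (r = 0.77, rho = 0.95), and Arg1 and Alox5 varied in opposite directions (r = -0.86, rho = -0.86).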
